A study of Homo sapiens with 192 samples.

Results

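The mitochondrially encoded genes are the 37 genes carried on the human mitochondrial DNA, chosen here as every identifier whose gene symbol starts with MT-, which gave 37 of the 58243 identifiers counted. These are 13 protein genes, 2 ribosomal RNA (rRNA) genes and 22 transfer RNA (tRNA) genes. Their expression was followed in 24 RNA sequencing libraries of 4 human colorectal cancer (CRC) cell lines, named HT29, LS513, LS174T and HCT116. Every line was cultured as a layer on plastic (2D) or in 3D, and each condition had 3 libraries. HCT116 was kept in McCoy medium and the other lines in DMEM, so line and medium cannot be told apart for HCT116. No gene was altered and no compound was added in the libraries compared, each line stands for 1 tumor, and the labels do not say whether the 3 libraries of a group came from separate cultures. The p-values therefore measure the spread between these libraries, which may be technical. Library preparation kept RNA with a poly(A) tail.

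Mitochondria make most of the ATP of a resting cell by passing electrons along the respiratory complexes of their inner membrane. The mitochondrial DNA encodes a few core subunits of complexes I, III, IV and V together with the rRNAs and tRNAs needed to translate them, and all other subunits, as well as every factor that copies, transcribes and processes this DNA, come from the nucleus. The mitochondrial DNA is read as long transcripts that span many genes, and the tRNAs lie between the other genes and are cut out. Most of the protein mRNAs and the rRNAs then receive short poly(A) tails, and the MT-ND6 mRNA is known as an exception.

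The layout of the genes bears on what a 75-base read can show. Of the 37 genes, 28 lie on the plus strand of the mitochondrial DNA and 9 on the minus strand, namely MT-ND6 and 8 tRNA genes. Among 27 neighboring pairs on the plus strand, 20 have no base between them. The 22 tRNA genes are 59 to 75 bases long, so none exceeds the read length and a read longer than its tRNA also covers a neighbor. The tRNAs for phenylalanine and valine, MT-TF and MT-TV, flank the small rRNA gene, MT-TH follows MT-ND4, and MT-TP lies on the minus strand. They are shown because the results below name them, MT-TF, MT-TV and MT-TP being called in 3 lines each, as was MT-TS2, and MT-TH in 2. They are printed with the strands of the acceptor stem in capitals, whose 7 bases paired with each other in all 4 tRNAs when G-T was counted as a pair (sequences from the GENCODE 29 transcripts, GRCh38).
MT-TF, chrM:577-647, plus strand: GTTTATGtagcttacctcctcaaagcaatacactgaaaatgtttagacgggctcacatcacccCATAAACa
MT-TV, chrM:1602-1670, plus strand: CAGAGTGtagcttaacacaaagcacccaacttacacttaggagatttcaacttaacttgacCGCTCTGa
MT-TH, chrM:12138-12206, plus strand: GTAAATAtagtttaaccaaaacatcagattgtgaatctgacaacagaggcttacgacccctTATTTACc
MT-TP, chrM:15956-16023, minus strand: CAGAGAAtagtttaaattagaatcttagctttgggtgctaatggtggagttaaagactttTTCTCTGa

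The complex V genes MT-ATP8 and MT-ATP6 share 46 bases, shown in capitals with 15 bases on each side, so reads from this stretch belong to both genes.
MT-ATP8 and MT-ATP6, chrM:8512-8587, plus strand: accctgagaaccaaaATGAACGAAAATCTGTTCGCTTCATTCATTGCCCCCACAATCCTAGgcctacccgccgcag

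Library totals lay between 18723942 and 34277421 counts, with a median of 30777613. All 12 colon epithelial markers listed exceeded 3 counts in every library of HT29, LS513 and LS174T. In HCT116 this held for 8 of the 12, while CDX1, CDH17 and TFF3 stayed at or under 3 counts. PTPRC and CD3E, which define blood cells, were at or under 3 counts in all libraries, as were 6 of 8 fibroblast markers. The summed immune list still reached 1327 to 2687 CPM in HT29, of which LYZ, also an epithelial product, had 1312 to 2660 CPM. A set of 3 libraries stood apart. HT29 2D replicate 3 had the lowest total and 1320 CPM of 17 listed RNAs that lack a poly(A) tail, against 17.9 and 20.4 CPM in the other HT29 2D libraries. LS174T 3D replicate 2 had 163 CPM of these RNAs, against 46.0 and 41.1 in its group. HCT116 3D replicate 1 had the highest mitochondrial share of all libraries, and at 61.6 CPM of these RNAs it lay between the other libraries of its group. Results that rest on these libraries are given with and without them.

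The 37 genes together took between 1.14% and 6.40% of the counts of a library, with a median of 2.03%. In HT29 the share was 2.08%, 1.49% and 1.60% in 2D and 2.08%, 2.85% and 1.67% in 3D (replicates 1, 3 and 4). In LS513 it was 3.48%, 3.18% and 2.86% in 2D and 2.62%, 3.44% and 3.32% in 3D. In these lines the 2D and 3D libraries overlapped, and all LS513 libraries except 3D replicate 1 exceeded all HT29 libraries. In HCT116 the share was 1.14%, 1.84% and 1.26% in 2D and 6.40%, 2.45% and 1.66% in 3D, and in LS174T it was 1.49%, 1.80% and 1.56% in 2D and 2.27%, 1.99% and 1.61% in 3D. The growth conditions overlapped in these lines too, by 1 low 3D library in each. As means ± SD over 3 libraries, the share of HT29 was 1.72% ± 0.315 in 2D and 2.20% ± 0.602 in 3D, that of LS513 was 3.17% ± 0.310 and 3.13% ± 0.441, that of HCT116 was 1.41% ± 0.373 and 3.50% ± 2.54, and that of LS174T was 1.62% ± 0.162 and 1.96% ± 0.332. Without HCT116 3D replicate 1 the difference of 2.09 percentage points in HCT116 was 0.644. The 95% Wilson interval of a library's share reached at most 0.00869 percentage points to either side, and its technical replicates differed by at most 0.0586 points, so counting error is small beside the spread between libraries. Bulk counts cannot tell more mitochondrial RNA per cell from a larger share of cells rich in it.

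**Figure D1:**
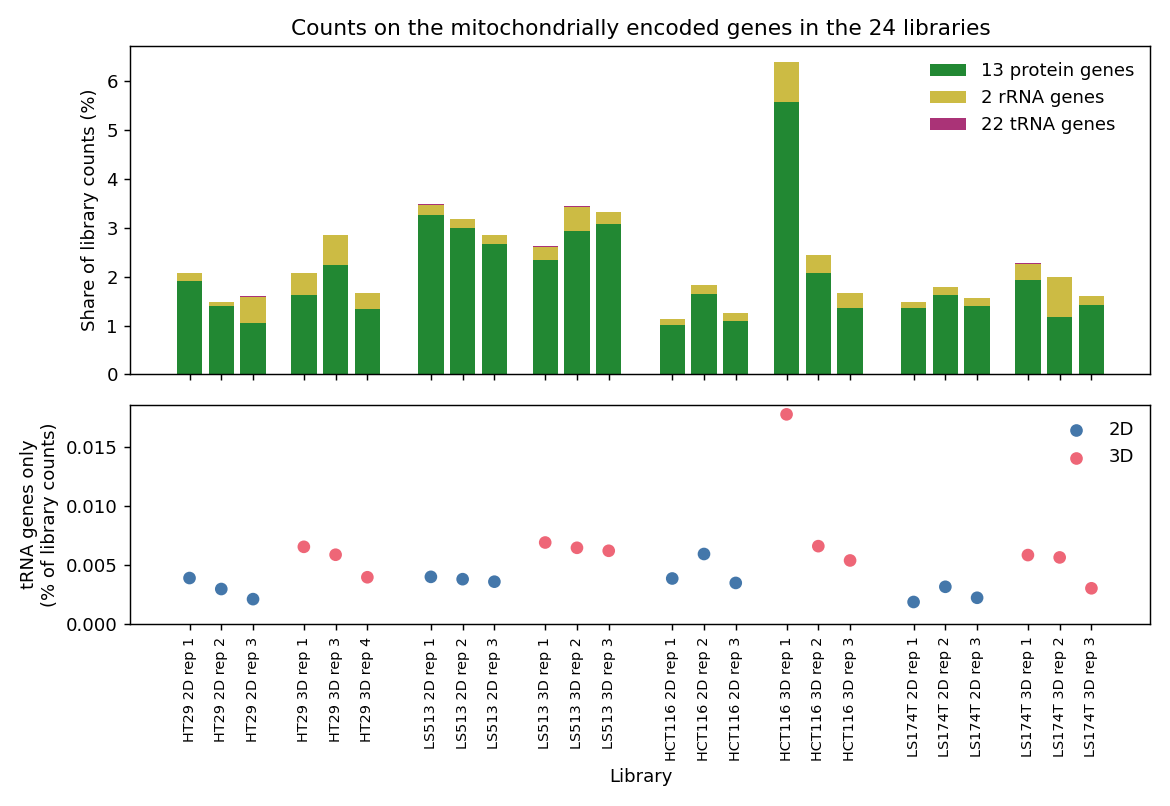
Share of library counts (percent) on the 37 mitochondrially encoded genes in each of the 24 libraries, as stacked bars by class (top), and the share of the 22 tRNA genes alone, colored by growth condition (bottom). The bars run from 1.14% to 6.40%, HCT116 3D replicate 1 is the highest, and the tRNA share does not exceed 0.0178%.

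Most of these counts came from the protein genes, and their order was compared as CPM per kb of gene. Median levels over the 24 libraries were 3122 CPM per kb for MT-CO2 and 3007 for MT-CO3, subunits of cytochrome c oxidase (complex IV). MT-ATP6 followed at 2276, MT-ND4 at 1948 and MT-CO1 at 1930 CPM per kb. The lowest of the plus strand protein genes was MT-ND5 at 576 CPM per kb, so these 12 genes spanned a 5.42-fold range. MT-CO2 and MT-CO3 held the first and second ranks in each line, in either order. Over the 24 libraries the range of each of these 12 genes overlapped that of its neighbor in the order. These ranges pool lines of different level, so they cannot tell the order within a library, which was not compared. By line means MT-CYB held rank 8 in each line, while MT-ND4 had rank 3 in HCT116 and LS513, 4 in LS174T and 5 in HT29. The large rRNA gene MT-RNR2 had a median of 1288 CPM per kb and the small rRNA gene MT-RNR1 of 361. MT-ND6, the complex I subunit gene alone among protein genes on the minus strand, had a median of 30.7 CPM per kb, 18.7-fold under MT-ND5. Its mRNA is known to lack the tail on which these libraries were selected. MT-ND6 lies next to MT-ND5 on the other strand, and per kb it reached 3.45% to 10.1% of MT-ND5 in a library. The options with which reads were assigned to a strand are not given in the sources used here.

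**Figure D2:**
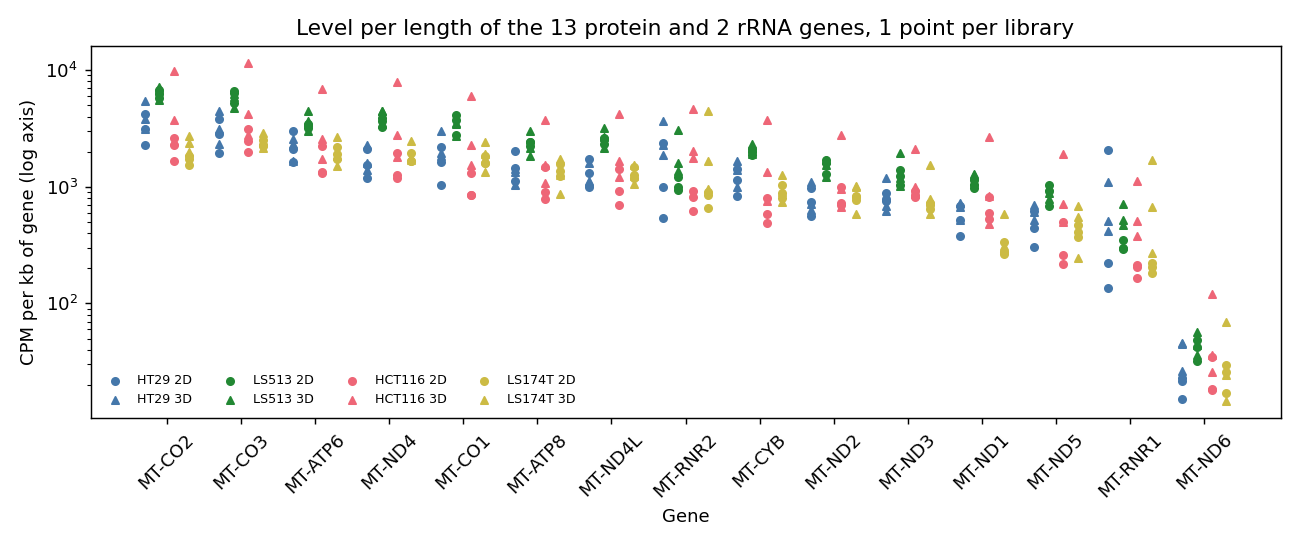
Level (CPM per kb of gene, log axis) of the 13 protein and 2 rRNA genes in every library, ordered by their median, with color for the line and circles for 2D and triangles for 3D. MT-CO2 and MT-CO3 lead with medians of 3122 and 3007, and MT-ND6 lies lowest at 30.7.

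Growth in 3D was then compared with growth in 2D in each line with edgeR's quasi-likelihood test, for the 30 of 37 genes that passed the filter on low counts. These are the 13 protein genes, both rRNA genes and 15 tRNA genes. A gene was called at a Benjamini-Hochberg adjusted p under 0.05 over all 19387 tested genes, and fold changes are log2 of 3D over 2D on the TMM scale. No mitochondrially encoded gene was called lower in 3D, where the share of all tested genes was 19.6% for HT29, 9.9% for LS513, 12.3% for HCT116 and 9.15% for LS174T. In HT29, 7 of the 30 were called higher, where 21.1% of all tested genes were, and in LS513 3 were, against 13.7%. In LS174T, 8 were called higher, against 13.1%. All 18 of these calls were tRNA genes. In HCT116, 18 of 30 were called higher, against 16.8% of all tested genes, and these were 9 protein genes, MT-RNR2 and 8 tRNA genes. Without HCT116 3D replicate 1, 6 of 30 were called in HCT116, of which 2 were protein genes, against 12.2% of all tested genes. The mean effect over the lines was called higher for 22 of 30 genes, against 26.6%, among them 6 protein genes, both rRNA genes and 14 of the 15 tRNA genes. Without the 3 libraries that stood apart this count was 20, with MT-ND4 (adjusted p = 0.065) and MT-TW lost.

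**Figure D3:**
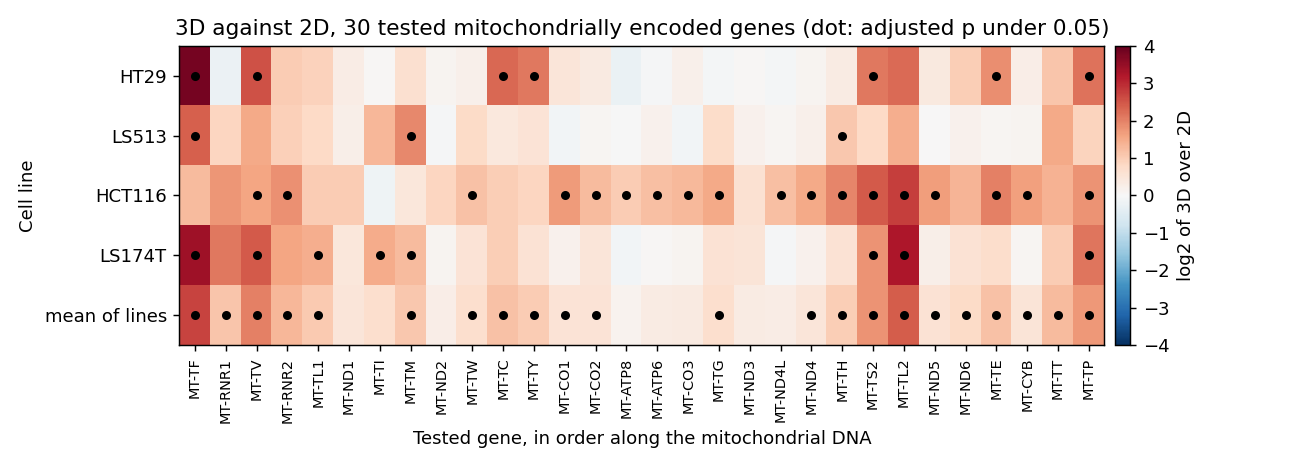
Log2 of 3D over 2D (color) of the 30 tested mitochondrially encoded genes, in order along the mitochondrial DNA, in each line and for the mean of the lines, with a dot where the adjusted p was under 0.05. HCT116 has dots on 9 protein genes, while all dots of HT29, LS513 and LS174T lie on tRNA genes.

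The protein genes moved least outside HCT116. The 13 had a median log2 fold change of 1.28 in HCT116, 0.20 in HT29, 0.17 in LS174T and 0.09 in LS513, where the median of all tested genes lay between 0.00 and 0.02. Without HCT116 3D replicate 1 the median in HCT116 was 0.45, and without HT29 2D replicate 3 that in HT29 was 0.03. Complex IV transfers electrons to oxygen, and MT-CO1 encodes its catalytic subunit. MT-CO1 stood at 1307, 2042 and 1309 CPM in HCT116 grown in 2D and at 9159, 3536 and 2358 CPM in 3D. Every 3D library exceeded every 2D library, and replicate 1 lay far above the others. The difference was 1.69 on the log2 scale (SE 0.37, adjusted p = 0.0018, edgeR), and 0.91 without that library (adjusted p = 0.026). MT-CO1 was the only protein gene without overlap between growth conditions in HCT116, and 22.8% of all tested genes were higher in 3D without overlap there. MT-CO2 rose by 1.28 in HCT116 (adjusted p = 0.0076) and MT-CO3 by 1.29 (adjusted p = 0.0094), and neither was called without that library (0.47, adjusted p = 0.17, and 0.45, adjusted p = 0.22). Each of these 2 calls was lost in 2 of the 6 fits that left out an HCT116 library.

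Cytochrome b, encoded by MT-CYB, is the mitochondrially encoded subunit of complex III. It had 555, 917 and 667 CPM in HCT116 grown in 2D and 4255, 1523 and 866 CPM in 3D, so the groups overlapped by replicate 3 of 3D. Its log2 fold change of 1.64 (adjusted p = 0.0033, edgeR) was 0.73 without 3D replicate 1 (adjusted p = 0.048). Of the complex I genes, which encode core subunits of NADH dehydrogenase, MT-ND4, MT-ND4L and MT-ND5 were called in HCT116. MT-ND4 rose by 1.5 (adjusted p = 0.0036), MT-ND4L by 1.22 (adjusted p = 0.0097) and MT-ND5 by 1.68 (adjusted p = 0.0064), and none of them was called without 3D replicate 1 (adjusted p = 0.073, 0.18 and 0.091). When the other 2 libraries that stood apart were left out too, MT-ND5 was called (0.87, adjusted p = 0.025). Of the 6 fits that left out an HCT116 library, 2 lost the call on MT-ND4L, and 1 each those on MT-ND4 and MT-ND5. MT-ND1 (1.03, adjusted p = 0.069), MT-ND2 (0.87, adjusted p = 0.081) and MT-ND3 (0.61, adjusted p = 0.18) did not pass. The complex V genes rose by 1.19 for MT-ATP6 (adjusted p = 0.018) and 1.00 for MT-ATP8 (adjusted p = 0.041). Without 3D replicate 1 they stood at 0.37 and 0.29 (adjusted p = 0.35 and 0.51). Each of their calls was lost in 3 of the 6 fits that left out an HCT116 library.

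In HT29, LS513 and LS174T none of the 13 protein genes was called (edgeR), and none of them had an unadjusted p under 0.05. Their log2 fold changes ran from -0.27 for MT-ATP8 to 0.97 for MT-ND6 in HT29, from -0.12 to 0.22 in LS513 and from -0.11 to 0.58 in LS174T. These counts depended on the filter. When every gene with any count was kept, 6 protein genes were called higher in HT29, where 12% of all genes were. In LS174T 4 were called higher (7.29%), in LS513 none (7.29%) and in HCT116 all 13 (8.34%). The median standard error of the members in a line was then 0.15 to 0.16, against 0.41 to 0.43 with the filter. For MT-RNR1 in HT29 it was 0.11 against 0.78, though its HT29 libraries ran from 129 to 1965 CPM. Calls of the fit without the filter therefore do not reflect the spread between libraries. The mean over the lines was called for MT-CO1 (0.56, adjusted p = 0.014), MT-CO2 (0.55, adjusted p = 0.0096), MT-ND4 (0.50, adjusted p = 0.023), MT-CYB (0.52, adjusted p = 0.025), MT-ND5 (0.59, adjusted p = 0.025) and MT-ND6 (0.77, adjusted p = 0.019). Without HCT116 3D replicate 1 the call on MT-ND5 was lost (0.40, adjusted p = 0.059), but it held without all 3 libraries that stood apart (0.42, adjusted p = 0.016). It was also lost without HCT116 2D replicate 3, LS174T 3D replicate 1 or LS174T 3D replicate 3 (adjusted p = 0.055, 0.057 and 0.051), and without LS174T 3D replicate 1 the calls on MT-ND4, MT-CYB and MT-ND6 were lost (adjusted p = 0.0501, 0.053 and 0.053). MT-ND6 had 11.3, 11.9 and 8.0 CPM in HT29 grown in 2D and 24, 23.7 and 13.8 CPM in 3D. Its HT29 libraries did not overlap, which held for 27.3% of all tested genes in this direction, yet its change there did not pass the test (0.97, adjusted p = 0.16).

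Both rRNA genes were higher in 3D in the mean over the lines. MT-RNR2, the large rRNA gene, rose by 1.34 (standard error 0.27, adjusted p = 4.7e-04, edgeR) and MT-RNR1, the small rRNA gene, by 1.12 (standard error 0.40, adjusted p = 0.025), which was 0.98 without HCT116 3D replicate 1 (adjusted p = 0.052). That call was also lost without LS174T 3D replicate 2 (0.91, adjusted p = 0.061) or HT29 3D replicate 1 (0.99, adjusted p = 0.0503). Without all 3 libraries that stood apart MT-RNR1 stood at 1.29 (adjusted p = 7.4e-05). In single lines only MT-RNR2 in HCT116 was called, from 967, 1446 and 1266 CPM in 2D to 7227, 3142 and 2758 CPM in 3D (1.84, adjusted p = 0.019). Of the 6 fits that left out an HCT116 library, 3 lost this call. These groups did not overlap, and without 3D replicate 1 the value was 1.25 (adjusted p = 0.13), which passed when all 3 libraries that stood apart were left out (1.25, adjusted p = 0.016). In LS513 MT-RNR2 had 1872, 1461 and 1553 CPM in 2D and 2511, 4783 and 2145 CPM in 3D, with no overlap and no call (0.95, adjusted p = 0.23). It was called when those 3 libraries, none of them of LS513, were left out of the fit (0.95, adjusted p = 0.040). Both rRNA genes were higher without overlap in LS513, HCT116 and LS174T, where 23%, 22.8% and 20.9% of all tested genes were.

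In HT29 the rRNA genes turned on 1 library. MT-RNR1 had 214, 129 and 1965 CPM in 2D and 1057, 487 and 395 CPM in 3D. Its replicate 3 in 2D stood above every other HT29 library, and its log2 fold change was -0.25 (adjusted p = 0.85, edgeR). Without that library the value was 1.94 (adjusted p = 0.016), and that of MT-RNR2 went from 1.01 (adjusted p = 0.15) to 1.80 (adjusted p = 0.013). The same library held 348 CPM of RMRP, 347 CPM of RN7SK and 231 CPM of MALAT1, against at most 1.93, 3.06 and 64.7 CPM in the other HT29 2D libraries. RMRP and RN7SK, named after their values were seen, are nuclear-encoded RNAs without a poly(A) tail. In LS174T 3D replicate 2, with 21.7 CPM of RMRP and 63.4 CPM of RN7SK, the rRNA genes had 0.681 counts per count on the protein genes, against 0.173 and 0.130 in the rest of its group. Without it the log2 fold changes in LS174T fell from 2.10 to 1.21 for MT-RNR1 and from 1.56 to 0.71 for MT-RNR2, none of them called (adjusted p = 0.073, 0.40, 0.0503 and 0.45).

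The RNAs without a tail, taken as a sum, also moved with growth condition outside these libraries. Their summed level was 53.5 to 69.5 CPM in LS513 grown in 2D and 89.9 to 122 CPM in 3D, and 16.3 to 24.5 CPM in HCT116 grown in 2D and 51.9 to 62.4 CPM in 3D. It was 17.9 and 20.4 CPM in the remaining HT29 2D libraries and 34.6 to 40.8 CPM in 3D, and 26.3 to 29.5 CPM in LS174T grown in 2D and 41.1 and 46.0 CPM in the remaining 3D libraries. In each line, leaving aside HT29 2D replicate 3, the sum in the 3D libraries was above that in the 2D libraries. Single members did not all follow the sum. In the remaining HT29 2D libraries RMRP had 1.06 and 1.93 CPM, against 0.302 to 0.798 CPM in 3D. RN7SL1 had 1.06 and 1.14 CPM there, against 2.59 to 4.88 CPM in 3D. With all libraries, 2 of the 13 tested were called higher in the mean over the lines (edgeR), against 26.6% of all tested genes. The part of these RNAs in the rRNA and tRNA results was not tested. The ratio of MT-RNR1 to MT-RNR2, per kb, lay between 0.139 and 0.488 in all libraries except HT29 2D replicate 3, where it was 0.871.

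**Figure D4:**
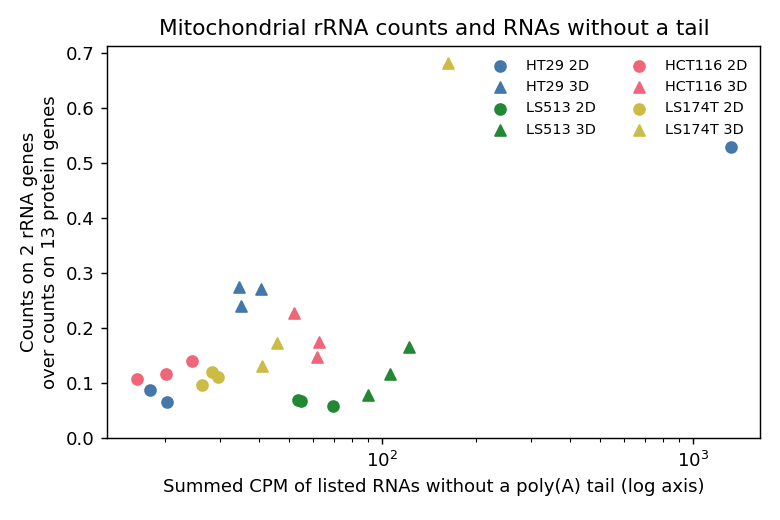
Counts on the 2 mitochondrial rRNA genes per count on the 13 protein genes (vertical) against the summed CPM of the 17 listed RNAs without a poly(A) tail (log axis), 1 point per library, with color for the line and circles for 2D and triangles for 3D. LS174T 3D replicate 2 (0.681 and 163 CPM) and HT29 2D replicate 3 (0.529 and 1320 CPM) lie apart from the rest.

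The tRNA genes gave most of the calls, on few reads. The 22 genes together held between 0.00186% and 0.0178% of a library's counts, the highest count of any of them in a library was 2334, and 10 of them had 0 counts in at least 1 library. The 7 genes that failed the filter (MT-TQ, MT-TA, MT-TN, MT-TS1, MT-TD, MT-TK and MT-TR) had at most 28 counts in a library, and MT-TN, which serves asparagine, had 0 counts in all 24. Since a low gene can pass the filter through the group in which it is high, the counts of calls cover the 15 tested tRNA genes and do not speak for all 22. The tested tRNA genes had a median log2 fold change of 1.85 in HT29, 1.39 in HCT116, 1.28 in LS174T and 0.91 in LS513, against 0.00 to 0.02 over all tested genes, and in HCT116 it was 0.86 without 3D replicate 1. Without overlap they were higher in 3D for 11 of 15 in HT29, where 27.3% of all tested genes were, 9 for LS513 (23%), 8 for HCT116 (22.8%) and 6 for LS174T (20.9%).

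The tRNA genes with at least 10 counts in every library were MT-TL1, MT-TH, MT-TG, MT-TT and MT-TW, which serve leucine, histidine, glycine, threonine and tryptophan. MT-TH had 8.98, 8.94 and 9.85 CPM in LS513 grown in 2D and 18.1, 23.4 and 17.3 CPM in 3D. The groups lay well apart, and MT-TH rose by 1.08 on the log2 scale (SE 0.37, adjusted p = 0.040, edgeR). This call was lost when any of the 6 LS513 libraries was left out (0.93 to 1.16, adjusted p = 0.0503 to 0.17). In HCT116 MT-TH rose from 3.68, 5.81 and 4.43 to 32.2, 12.4 and 9.33 CPM (1.95, adjusted p = 7.3e-04), and it kept its call without 3D replicate 1 (1.21, adjusted p = 0.012). MT-TG and MT-TW rose in HCT116 by 1.5 and 1.18 (adjusted p = 0.0071 and 0.036), but not without that library (0.73 and 0.23, adjusted p = 0.14 and 0.70). Of the 6 fits that left out an HCT116 library, 1 lost the call on MT-TG and 3 that on MT-TW. MT-TL1 lies directly behind the large rRNA gene and rose in LS174T from 4.46, 5.80 and 3.73 to 12.7, 19.3 and 6.30 CPM (1.45, adjusted p = 0.024). Without 3D replicate 2 it stood at 1.04 (adjusted p = 0.22), and without all 3 libraries that stood apart at 1.04 as well, with a call (adjusted p = 0.035). Of the 6 fits that left out an LS174T library, 4 lost the call on MT-TL1. MT-TT was called in no single line. The mean over the lines was called for all 5, at 1.05 for MT-TL1, 0.98 for MT-TH, 0.68 for MT-TG, 1.26 for MT-TT and 0.68 for MT-TW (adjusted p = 3.0e-04, 1.9e-04, 0.0061, 9.3e-04 and 0.0091). Without the 3 libraries that stood apart, MT-TW was no longer called (adjusted p = 0.083).

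Among the tRNA genes with lower counts, MT-TF, MT-TV and MT-TP are named after their values were seen. MT-TF, the first annotated gene of the plus strand, had 7, 2 and 3 counts in HT29 grown in 2D and 131, 26 and 52 counts in 3D. The 3D libraries were all above the 2D libraries, and the rise of 3.82 on the log2 scale (SE 0.77, adjusted p = 4.6e-04, edgeR) rested on those few 2D reads. It was also called in LS513, with 6, 9 and 2 counts in 2D and 41, 27 and 13 in 3D (2.40, adjusted p = 0.029, lost in 5 of the 6 fits that left out an LS513 library), and in LS174T, with 10, 16 and 7 counts in 2D and 131, 151 and 25 in 3D (3.39, adjusted p = 7.2e-04). In HCT116 it had 34, 38 and 14 counts in 2D and 93, 46 and 50 in 3D, with no overlap and no call (1.27, adjusted p = 0.10). MT-TV, which lies between the rRNA genes, was called in HT29 (2.54, adjusted p = 0.0017), HCT116 (1.57, adjusted p = 0.031, or 0.69 without 3D replicate 1, adjusted p = 0.37) and LS174T (2.45, adjusted p = 0.0046). MT-TP, for proline, was called in the same lines, at 2.17 in HT29 (adjusted p = 0.0026), 1.80 in HCT116 (adjusted p = 0.0080) and 2.13 in LS174T (adjusted p = 0.0497). In LS174T it had at most 20 counts in a library and lost its call without 3D replicate 2 (2.35, adjusted p = 0.070). Of the 6 fits that each left out 1 library of the line, 4 lost the call on MT-TP in LS174T. As many lost that on MT-TV in HCT116, and 1 lost that on MT-TP in HCT116.

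Relative to the protein genes, the plus strand tRNA genes had 1.94 ± 0.0444 counts per 1000 protein counts in HT29 grown in 2D and 2.80 ± 0.644 in 3D (SD, n = 3 libraries each). In LS513 the values were 1.19 ± 0.0668 and 2.27 ± 0.412, and in LS174T 1.56 ± 0.286 and 3.18 ± 1.38. In these lines every 3D library lay above every 2D library. In HCT116 the values overlapped, at 3.27 ± 0.327 in 2D and 3.10 ± 0.227 in 3D. Reads that cover a tRNA gene can come from uncut transcripts as well as from the tRNA, and these counts do not tell them apart. How reads over a tRNA gene and its neighbor were counted is not given, and read lengths were not checked. The counts on tRNA genes depend on both.

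Whether the growth effect differed between lines was asked with the 3 interaction contrasts of edgeR. None of the 30 genes was called, where 17.1% of all tested genes were, and 6 had an unadjusted p under 0.05. The smallest adjusted p was 0.060, for MT-CO1, followed by MT-CYB at 0.10 and MT-ND4 at 0.13. The calls on protein genes in HCT116 and their absence in the other lines were therefore not shown to differ by this fit. When every gene with any count was kept, 21 of 36 mitochondrially encoded genes were called, where 10.4% of all genes were. The small standard errors of that fit do not reflect the spread between libraries, so these calls do not show a difference between lines. Leaving out HCT116 3D replicate 3 gave 7 calls among 31 tested members, where 18.4% of all genes were called. The adjusted p was then 0.0065 for MT-CYB and 0.0094 for MT-CO1. Leaving out HT29 2D replicate 3 gave 1 call (14.6% of all genes), MT-CO1 at 0.044. Leaving out LS174T 3D replicate 3 gave 1 (18.3%), MT-TF at 0.036. Without the 3 libraries that stood apart there was 1 (18.6%), MT-TI at 0.036.

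Levels were also compared between lines over both growth conditions, where 95.7% of all tested genes were called. Of the mitochondrially encoded genes 23 of 30 were called (edgeR), namely 12 protein genes, none of the rRNA genes and 11 tRNA genes. MT-ND6 did not pass (adjusted p = 0.31). As means over both growth conditions, LS513 had the highest protein mRNA levels. In 3D alone the mean share of the 13 protein genes was 3.00% ± 2.25 in HCT116 and 2.79% ± 0.390 in LS513. All 12 plus strand protein genes were higher in LS513 than in HT29, where 35.5% of all tested genes were, with a median log2 difference of 0.81 over the 13. All 12 were also higher in LS513 than in LS174T, where 32% of all tested genes were lower in LS174T, and 7 were higher in LS513 than in HCT116, where 36.2% were lower in HCT116. MT-CO2 had 4361 ± 443 CPM in LS513, 2577 ± 2089 in HCT116, 2508 ± 742 in HT29 and 1389 ± 305 in LS174T (SD, n = 6 libraries). No difference in it between HT29 and HCT116 passed the test (adjusted p = 0.77), and LS174T was lower than each of the other lines (adjusted p from 2.9e-06 to 0.0060).

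LS174T was low in MT-ND1, the complex I gene behind MT-TL1. It had 331 ± 115 CPM of MT-ND1, against 1083 ± 119 in LS513, 941 ± 793 in HCT116 and 558 ± 129.9 in HT29. The log2 difference was -0.76 from HT29 (adjusted p = 0.024, edgeR), -1.44 from HCT116 (adjusted p = 2.0e-04) and -1.72 from LS513 (adjusted p = 3.5e-05). Of the 13 protein genes, 2 were lower in LS174T than in HT29, where 33.9% of all tested genes were, 3 were lower than in HCT116 (37.6%), and MT-ND1 alone was higher in HCT116 than in HT29 (40.2%). Among the tRNA genes named after their values were seen, MT-TM, for methionine, was higher in HCT116 than in each other line, by 3.05 over LS513 (adjusted p = 1.2e-08), 1.70 over HT29 (adjusted p = 1.3e-05) and 1.30 over LS174T (adjusted p = 1.9e-04). Of all tested genes, 40% were higher in HCT116 than in LS513. MT-TI, for isoleucine, was higher in LS174T than in HT29, LS513 and HCT116, by 1.56, 1.43 and 1.33 (adjusted p = 8.9e-04, 0.0019 and 0.0025), where 39.6%, 36.9% and 38.4% of all tested genes were. The minus strand genes MT-TC, MT-TY and MT-TP, for cysteine, tyrosine and proline, were lower in LS174T than in every other line, with log2 differences from -2.91 to -1.40. Of all tested genes, 33.9%, 32% and 37.6% were lower in LS174T than in HT29, LS513 and HCT116. In LS174T the means of MT-TC, MT-TY and MT-TP were 0.116, 0.156 and 0.239 CPM, so these differences rest on few reads. MT-TC and MT-TP had 0 counts in at least 1 LS174T library.

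The nucleus holds copies of mitochondrial DNA, and reads that aligned more than once had been removed before counting. Of the 75-base windows of MT-CO1, 36.6% occurred letter for letter in another annotated transcript, as did 34.4% of those of MT-ND2, 28.0% of MT-ATP6, 16.3% of MT-ND1, 14.6% of MT-CO3 and 10.5% of MT-CO2. The share was 7.10% for MT-ND6, 3.16% for MT-RNR2 and 0.173% for MT-ND5. No such window was found for MT-RNR1, MT-ATP8, MT-ND3, MT-ND4L, MT-ND4 and MT-CYB, for which annotated transcripts alone were searched. Reads from shared windows could not be kept, so the levels of MT-CO1, MT-ND2 and MT-ATP6 stand on fewer positions than their length. These shares hold for the annotated sequence and for full-length reads. With windows of 41 bases, the shortest reads kept, the share was 56.5% for MT-CO1, 18.0% for MT-ATP8 and 0.327% for MT-ND3. Mitochondrial sequences of the lines and read lengths of the libraries were not checked. A gene may therefore not rest on the same positions in every library.

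Of 407 identifiers for nuclear copies, 71 had counts, and the 3 with the highest levels, MTATP6P1, MTND2P28 and MTCO1P12, held 99.5% of the 193192 counts on them. MTATP6P1 lies on chromosome 1 from 633696 to 634376 and differs from MT-ATP6 at 10 of 681 bases (98.5% identity). One of these, A334G, is counted from the 5′ end of MT-ATP6, with the base of MT-ATP6 first. The 75-base stretch around it holds no other difference, and it is shown to make plain that a single base, in capitals, assigns such a read.
MT-ATP6, chrM:8823-8897, plus strand: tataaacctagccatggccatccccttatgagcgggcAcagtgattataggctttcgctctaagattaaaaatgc
MTATP6P1, chr1:633992-634066, plus strand: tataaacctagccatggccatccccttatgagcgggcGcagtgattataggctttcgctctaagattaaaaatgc

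The counts on MTATP6P1 were 11.8% to 15% of those on MT-ATP6 in every library, with line means of 13.4% ± 1.20 for HT29, 13.2% ± 0.259 for LS513, 12.5% ± 0.611 for HCT116 and 12.8% ± 0.149 for LS174T (SD, n = 6). MTND2P28 had 1.76% to 3.27% of the counts of MT-ND2, and MTCO1P12 had 0.0681% to 0.115% of those of MT-CO1. In the mean over the lines the log2 fold change was 0.42 for MTATP6P1 and 0.34 for MT-ATP6, -0.08 for MTND2P28 and 0.26 for MT-ND2, and 0.32 for MTCO1P12 and 0.56 for MT-CO1. In HCT116 MTATP6P1 stood at 1.28 (adjusted p = 0.012, edgeR) and MT-ATP6 at 1.19. Whether the reads on the copies come from the nucleus or from the mitochondria was not tested.

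The nuclear genes for the remaining subunits of the respiratory complexes were compared in the same fit. Of 76 genes for complexes I to V, all tested, 61 were called higher and none lower in the mean over the lines, where 26.6% of all tested genes were called higher. Their median log2 fold change was 0.31, against 0.04 over all tested genes. All 11 genes of complex IV were higher, as were 8 of 9 of complex III, 14 of 15 of complex V, 26 of 37 of complex I and 2 of 4 of complex II, whose subunits are all nuclear. In single lines 49 were called higher in HT29 (21.1% of all tested genes), 43 for LS174T (13.1%), 15 for HCT116 (16.8%) and 14 for LS513 (13.7%), and none was lower. HCT116, in which the mitochondrial protein genes had their highest median (1.28, or 0.45 without 3D replicate 1), had the lowest nuclear median (0.18), while in HT29 the medians were 0.20 and 0.45.

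COX5B, a nuclear subunit of complex IV, rose in all 4 lines, from 99.3 ± 2.53 to 184 ± 5.73 CPM in HT29 (0.89, adjusted p = 5.4e-05, edgeR), and its mean log2 fold change was 0.70. NDUFA1 of complex I rose by 0.61 in the mean, UQCRB of complex III by 0.46, ATP5MC2 of complex V by 0.44 and SDHA of complex II by 0.28 (adjusted p = 5.2e-07, 2.8e-08, 1.1e-06 and 5.9e-06). In the mean the standard error was 0.18 for MT-CO1 and 0.0732 for COX5B.

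**Figure D5:**
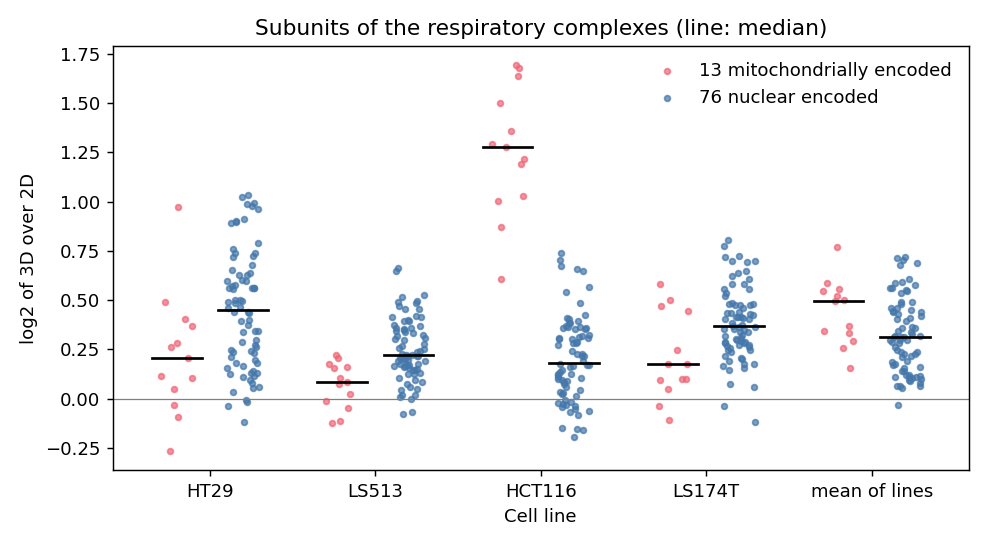
Log2 of 3D over 2D of the 13 mitochondrially encoded and 76 nuclear encoded subunit genes of the respiratory complexes in each line and for the mean of the lines, 1 point per gene, with the median as a line. The mitochondrial median is 1.28 in HCT116 (0.45 without 3D replicate 1) and between 0.09 and 0.20 in the other lines, and the nuclear medians lie between 0.18 and 0.45.

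Genes for the expression of mitochondrial DNA held calls in both directions. Of 9 genes for its transcription, 4 were called lower and 1 higher in the mean over the lines, where 26.6% and 23.9% of all tested genes were called higher and lower. MTERF3, which represses transcription from mitochondrial DNA, fell by 0.60 (adjusted p = 3.7e-09, edgeR), and TFAM, which packages this DNA and starts its transcription, fell by 0.44 (adjusted p = 7.7e-06). POLRMT, the mitochondrial RNA polymerase, had a log2 fold change of 0.07 (adjusted p = 0.43). Of 22 genes for cutting, tailing and turnover of mitochondrial RNA, 14 were lower and 1 higher, with 12 lower in HT29 (19.6% of all tested genes), 12 for HCT116 (12.3%), 9 for LS513 (9.9%) and 4 for LS174T (9.15%). MTPAP, which adds the poly(A) tails, fell from 36.5 ± 1.46 to 24.8 ± 0.959 CPM in HT29 (-0.56, adjusted p = 4.9e-05) and by 0.42 in the mean (adjusted p = 8.4e-08). LRPPRC, which stabilizes mitochondrial mRNAs, fell by 0.30 (adjusted p = 9.1e-06), while its partner SLIRP had a log2 fold change of -0.02 (adjusted p = 0.85).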

How the data were processed

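RNA sequencing data of 24 libraries (4 CRC lines, 2D or 3D, 3 libraries each) were used. Libraries were poly(A)-selected and strand specific, and sequenced as 75-base single reads. The authors trimmed reads (Trim Galore 0.4.1, per the submitters' processing notes), aligned them with STAR, removed reads that aligned more than once and counted the rest on exons with HTSeq-count 0.5.3, and the deposited values are unnormalized counts of every gene, 1 set per technical replicate. The counting options are not given in the sources used here. The submitters' notes name the build hg19, whereas 57980 of the 58243 identifiers were found in GENCODE 29 on GRCh38, which was used for names, lengths and positions. The 8 technical replicates of a library were summed (7 for HT29 3D replicate 4, the remaining one was not analysed here), and groups follow the sample labels. Library totals were 18723942 to 34277421 counts. Wilson intervals at 95% cover counting error only.

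In R 4.3.3, edgeR 4.0.16 was used with filterByExpr (19387 genes kept), TMM scaling and a robust quasi-likelihood fit of 8 groups without a block. P-values are two-sided, adjusted by the Benjamini-Hochberg method over all tested genes. The smallest p of an exact permutation of 3 against 3 libraries is 0.1, so non-overlap carries no call. CPM per kb divides TMM-scaled CPM by gene length. Windows of 75 and 41 bases were searched in GENCODE 29 transcripts. The fit was tested on simulated data. Alternatives were DESeq2 1.42.0, other scalings, no filter, a replicate block, fits of 1 line and leaving out libraries. The members and gene lists were chosen with earlier results of these data known. Genes with at least 10 counts in every library are named singly, and from each nuclear list the gene with the smallest p of the mean effect and POLRMT, TFAM, TWNK, LRPPRC, SLIRP and PPARGC1A.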

Additional observations from a re-analysis of the deposited data

How the results depend on the processing

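No mitochondrially encoded gene was called lower in 3D in any line under any alternative tried. The number called higher moved by over 1.5 times from the values reported, given here with the share of all genes in each fit called higher. In HT29 it went from 7 to 19 of 36 (12%) when every gene with any count was kept. In LS513 it went from 3 to 5 with DESeq2 (7.92%), 8 without the 3 libraries that stood apart (15.9%), 10 when only the line's 6 libraries were fitted (19.8%) and 11 with all genes (7.29%). In HCT116 it went from 18 to 10 without those 3 libraries (15%) and 7 with the line's own libraries (17.1%). In LS174T it went from 8 to 4 without the 3 libraries (7.4%), 5 with a replicate block (9.89%), 3 with the line's own libraries (6.85%), 17 with all genes (7.29%) and 4 with library totals as the only scaling (8.88%). The interaction gave 0 calls, 1 without the 3 libraries (18.6%), 1 with the replicate block (8.76%) and 21 of 36 with all genes (10.4%). Counts from the fits with all genes rest on standard errors that do not reflect the spread between libraries.

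Leaving out each library in turn gave 6 to 9 calls in HT29 (18.3% to 20.3% of all genes), 0 to 2 in LS513 (9.12% to 14.3%), 6 to 21 in HCT116 (11.2% to 15.7%), 2 to 11 in LS174T (7.05% to 16.2%), 16 to 29 for the mean over the lines (25% to 26.9%) and 0 to 7 for the interaction (13.6% to 21.4%). The LS513 count fell to 0 without LS513 2D replicate 3 and to 1 without LS513 2D replicate 1, 2D replicate 2, 3D replicate 1 or 3D replicate 3. The HCT116 count was 6 without 3D replicate 1, 10 without 2D replicate 1 and 11 without 2D replicate 3. The LS174T count was 2 without 2D replicate 3, 3D replicate 1 or 3D replicate 2, and 3 without 2D replicate 1. The difference in mitochondrial share, 3D minus 2D, ran from 0.152 to 0.744 percentage points in HT29, from -0.201 to 0.209 in LS513, from 0.644 to 3.01 in HCT116 and from 0.188 to 0.519 in LS174T. In LS174T it was 0.0598 for the 13 protein genes alone and 0.0760 for the genes with under 1% of windows found elsewhere, against 0.345 for all 37. MT-RNR1 in HT29 reversed from -0.25 to 1.94 without HT29 2D replicate 3, and also to 1.94 without the 3 libraries, and lay between -0.76 and 1.94 as HT29 libraries were left out in turn. Of the single-gene values recomputed, 2476 kept direction and side of the threshold, 136 lost and 107 gained a call, and 2 reversed. The cause of these changes was not tested. Leaving out the 3 libraries that stood apart, leaving out libraries for the interaction, and keeping all genes for the interaction, the mean and the levels between lines, were chosen after seeing the data.

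Equal replicate numbers did not mark libraries that deviate together. Of 11 pairs of equal number, 2 correlated above 0.1 in their deviations from the group means, with a range from -0.21 to 0.22, so the replicate block is only an alternative.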

Other observations

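Other nuclear genes of mitochondrial upkeep were also compared between 3D and 2D, as the mean over the lines with edgeR. Of 13 genes for replication of the mitochondrial DNA and supply of its precursors, 8 were called lower and 1 higher, where 23.9% of all tested genes were lower and 26.6% higher. DNA2, a nuclease and helicase of DNA replication that also acts in the nucleus, fell by 0.77 (adjusted p = 4.7e-08), and TWNK, the mitochondrial DNA helicase, fell by 0.17 (adjusted p = 5.6e-04). Of 19 genes for modification of mitochondrial RNA, 7 were lower and 1 higher, and TRMU, which thiolates tRNAs, fell by 0.31 (adjusted p = 2.1e-05). Of 22 mitochondrial aminoacyl-tRNA synthetases, which load the tRNAs, 8 were lower and 4 higher, and MARS2, for methionine, fell by 0.51 (adjusted p = 2.3e-07).

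Of 10 regulators of mitochondrial biogenesis, 8 were tested, of which 5 were lower and 1 higher in the mean over the lines. Of all tested genes, 23.9% were lower and 26.6% higher. PPRC1, a coactivator of this program with the smallest p in the list, fell by 0.47 (adjusted p = 9.6e-09, edgeR). PPARGC1A, its best known coactivator, had 8 to 34 counts in the HT29 libraries and at most 2 in any library of the other lines, where it is under the floor of 3 counts.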
